A study of Mus musculus with 30 samples.

Results

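Chemokines and acute cytokines of the mouse lung were followed through 6 days in low oxygen. The set held 10 genes, Ccl2, Ccl3, Ccl4, Ccl7, Cxcl1, Cxcl2, Cxcl12, Cxcl15, Il6 and Il1b, of 15964 genes that the array annotation names with 1 symbol. They were chosen by name, as the probe sets annotated with exactly 1 of these symbols. This gave 15 probe sets, 12 on the A array, 1 on the B array and 2 on the C array. RNA came from whole murine lung, and the 3 Affymetrix MG-U74 version 2 array types carry different probe sets. The animals of 4 groups were kept in a chamber at 10% O2 for 10 h, 2 d, 4 d or 6 d before the lung was taken, a treatment used to induce pulmonary hypertension. The fifth group is titled Norm. This word is not spelled out, and the description of the Norm samples mentions a rejection that no title repeats; samples were grouped by title. Strain, sex, age and genotype are not given in the labels, and no group carries a labelled allele or drug. There were 2 samples per group (1a and 1b) and 1 array of each type per sample. Nothing in the labels ties the letters to separate animals, and the p-values therefore speak of the spread among these samples only, part or all of which may be technical.

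Chemokines are small secreted proteins that guide leukocytes through G-protein-coupled receptors. Ccl2 and Ccl7 attract monocytes through Ccr2, Cxcl1 and Cxcl2 attract neutrophils through Cxcr2, and Ccl3 and Ccl4 attract macrophages and lymphocytes. These genes, like the cytokines Il1b and Il6, are classically switched on by NF-kappaB within hours of an injury and fall again soon after. Cxcl12 differs from them in being made constitutively by stromal and vascular cells; it signals through Cxcr4 and is cleared by the scavenger receptor Ackr3. Cxcl15, also called lungkine, is made by lung epithelium and is secreted into the airways.

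The stretches upstream of 4 members are shown because they set the inducible neutrophil attractants beside the 2 chemokines of high signal. They are the 250 bases before the annotated start in RefSeq (GRCm38.p6), written 5′ to 3′ on the strand of the gene, for Cxcl1 (chr5:90890995-90891244, + strand), Cxcl2 (chr5:90903649-90903898, + strand), Cxcl15 (chr5:90794284-90794533, + strand) and Cxcl12 (chr6:117168285-117168534, + strand). Capitals mark matches on either strand to a kappaB motif, GGGNNTTTCC, and to ACGTG and GCGTG, the cores bound by hypoxia-inducible factor.
Cxcl1: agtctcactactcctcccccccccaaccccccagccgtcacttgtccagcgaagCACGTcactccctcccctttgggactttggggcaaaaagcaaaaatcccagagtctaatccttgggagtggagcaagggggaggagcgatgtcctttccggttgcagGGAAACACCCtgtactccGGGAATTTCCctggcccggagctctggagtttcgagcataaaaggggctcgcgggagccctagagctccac
Cxcl2: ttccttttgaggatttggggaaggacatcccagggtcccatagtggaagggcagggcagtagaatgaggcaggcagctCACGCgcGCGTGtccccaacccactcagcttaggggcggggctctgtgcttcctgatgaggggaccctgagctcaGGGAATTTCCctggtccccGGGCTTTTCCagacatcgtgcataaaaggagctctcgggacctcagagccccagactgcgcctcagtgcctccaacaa
Cxcl15: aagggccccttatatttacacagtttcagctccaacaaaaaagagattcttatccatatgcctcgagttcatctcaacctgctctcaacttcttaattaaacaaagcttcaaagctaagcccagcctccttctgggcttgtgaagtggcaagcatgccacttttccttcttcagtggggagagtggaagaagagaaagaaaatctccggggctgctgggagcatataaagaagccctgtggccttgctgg
Cxcl12: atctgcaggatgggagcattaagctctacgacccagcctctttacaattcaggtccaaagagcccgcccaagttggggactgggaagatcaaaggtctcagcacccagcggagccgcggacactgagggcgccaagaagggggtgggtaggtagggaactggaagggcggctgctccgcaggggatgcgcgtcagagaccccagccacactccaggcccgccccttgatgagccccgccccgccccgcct
Cxcl1 held 2 kappaB matches, GGGAATTTCC at 71 to 62 bases before the start and GGAAACACCC, on the opposite strand, at 89 to 80. Cxcl2 held 2 as well, GGGAATTTCC at 97 to 88 and GGGCTTTTCC at 78 to 69. Of the 7 members with a sequence in the table, Il6 also held 1 match, GGGATTTTCC at 44 to 35, and Cxcl12, Cxcl15, Il1b and Ccl3 held none of the 3 motifs in this window. The kappaB motif stood in 1.41% of all 32851 stretches of the same length, ACGTG in 16.6% (among the members in Cxcl1) and GCGTG in 28.2% (in Cxcl2). The motifs do not overlap here. A match is a description of letters. Cxcl15, Cxcl1 and Cxcl2 all lie on chromosome 5. Ccl2, Ccl7 and Ccl4 are named only.

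Values are the deposited intensities on a linear scale. For the tests, a floor was laid at the 40th percentile of each array type (236 for A, 297 for B, 201 for C) and lower values were raised to it; a member is called at the floor where it lay below it. A change against a group at the floor is given as at least that size. Trimmed means of the 29 arrays in use lay between 800.2 and 800.4, and Spearman correlations within pairs of the same group and type were 0.872 to 0.971. The array titled Norm 1a on the A type was left out, since it stands in the B table and its Spearman correlation with the B arrays lay between -0.00277 and 0.00963. Lung epithelial and endothelial markers were present, with 14 of 15 and 11 of 11 genes tested. For the Gapdh control probe sets, the 3' signal over the 5' signal was 3.64 to 4.6 on the 2 d arrays and 0.786 to 1.68 on the others, and for beta-actin it was 3.64 to 4.98 at 2 d, 0.474 to 1.66 at 6 d and 0.0272 to 0.926 elsewhere. The 2 d and 6 d arrays also stand in 1 run by the order of deposit, apart from Norm, 10 h and 4 d.

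A pair of A arrays went against their labels, and 12 of the 15 member probe sets are on A. Levels centred on each gene's mean were correlated between the A arrays and the B or C arrays, over 1303 genes found on both A and B and 1322 found on both A and C. The A array labelled Norm 1b correlated best with the 4 d 1a array on both B (r = 0.166, against 0.0170 with its own label) and C (r = 0.155, against 0.0256). The A array labelled 4 d 1a correlated best with the Norm 1a array on B (r = 0.121, against -0.0265 with its own label) and on C (r = 0.0784, against -0.0363). Of the 9 A arrays, 6 correlated best with their own group on B and 7 on C, the third exception on B being 6 d 1b with 2 d 1b. The labels were kept. Every A comparison with Norm rests on the single array labelled Norm 1b and cannot be made without it. The orders among 10 h, 2 d and 6 d use neither array and are given beside the comparisons with Norm. They set 10 h against groups of the other run of deposit.

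**Figure D1:**
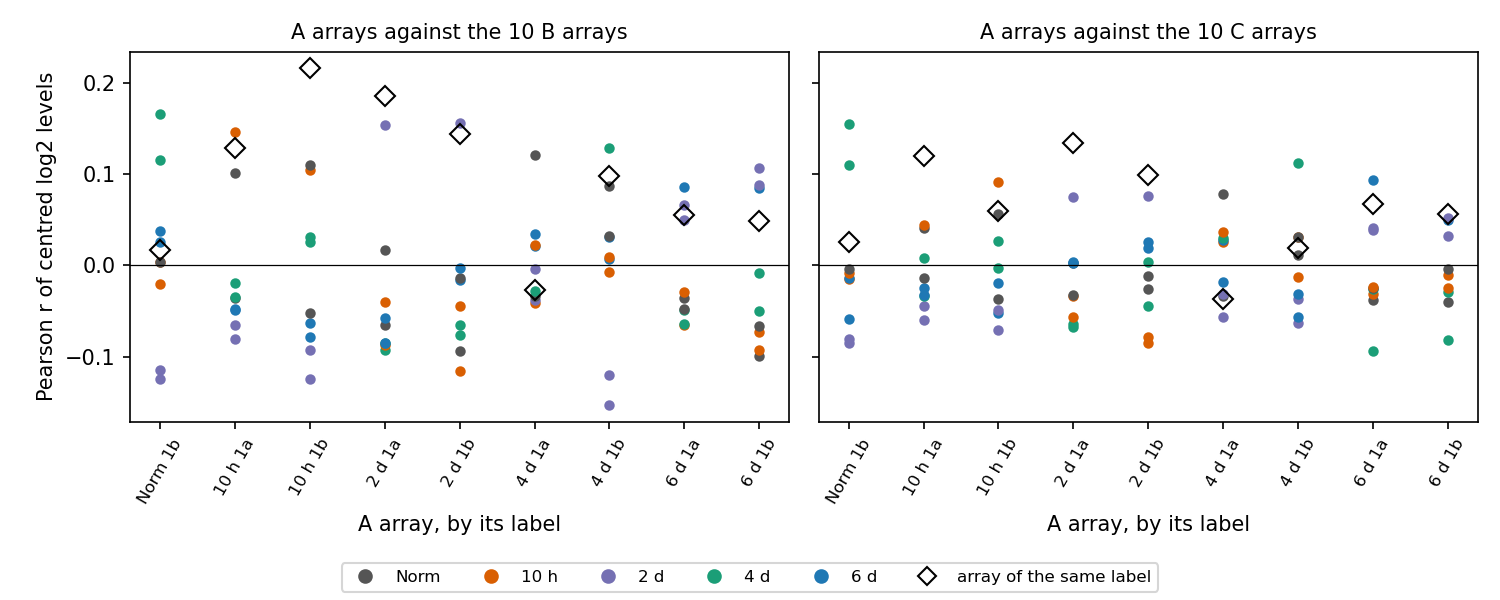
Pearson correlation of gene-centred log2 levels of each A array (horizontal axis, by its label) with the 10 B arrays (left) and the 10 C arrays (right); each dot is 1 array coloured by its group, and the open diamond is the array of the same label. The highest dot of the array labelled Norm 1b is from 4 d (0.166 on B), and the highest dot of the array labelled 4 d 1a is from Norm (0.121 on B).

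Of the 15 member probe sets, 10 were above the floor on at least 2 arrays and were tested, and these stand for 6 genes. Of the other 5, 4 were at the floor on every array (Cxcl2, Il6, Ccl3 and Ccl4) and 1, a further probe set of Cxcl1, was above it on 1 array. No member probe set passed an adjusted p under 0.05 in limma with Benjamini-Hochberg adjustment over all 25801 probe sets, in any of the 8 comparisons. The share of all probe sets called by that rule was 0% for 10 h minus Norm, 1.86% for 2 d, 0.00775% for 4 d and 0% for 6 d. It was 0% for the hypoxia mean minus Norm, 0.0155% for late (4 d and 6 d) minus early (10 h and 2 d), 0.0233% for 4 d minus 10 h and 0.062% for 6 d minus 2 d. At an unadjusted p under 0.05, 2 of the 10 member probe sets were called at 10 h against 6.11% of all probe sets, 3 at 2 d against 18.9%, 0 at 4 d against 6.13% and 3 at 6 d against 9.17%. For the mean of the hypoxia groups the count was 2 against 7.79%, for late minus early 3 against 11%, for 4 d minus 10 h 3 against 8.08%, and for 6 d minus 2 d 0 against 13%. The 10 probe sets include 4 of Cxcl12 and 2 of Cxcl15, so these counts lean on both genes. With 1 representative probe set for each of the 6 genes, the median change was 0.49 at 10 h, 0 at 2 d, 0 at 4 d and 0.0075 at 6 d, against 0 to 0.0044 in size over all 13039 genes. At 10 h, 2 of the 6 genes were higher at an unadjusted p under 0.05 (2.7% of all genes were). At 2 d 1 was higher and 1 lower, against 8.31% and 10.1% of all genes, and likewise at 6 d, against 4.58% and 4.53%. Ccl7 met the filter only through its 10 h arrays, and Cxcl1 only with them. The 10 h median and counts are therefore no support for a rise. With at least 5 arrays above the floor required, 6 member probe sets stayed, the 4 of Cxcl12 and the 2 of Cxcl15. Of these, 0 were called at 10 h at an unadjusted p under 0.05, beside 1350 of 22232 probe sets. Ccl2, Ccl7, Cxcl1 and Il1b left the tests under this filter, so it cannot decide whether they changed at 10 h. All comparisons with Norm use the same Norm arrays and are not independent of each other.

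The monocyte attractants were brightest at 10 h. Ccl2 (102736_at) read 413 and 447 at 10 h, 322 and 264 at 2 d, 166 and 19.5 at 4 d, 187 and 91.7 at 6 d, and 72.1 on the array labelled Norm 1b. Both 10 h arrays lay above the 7 others, whatever the labels of the doubted pair, and the order 10 h, 2 d, 6 d had no overlap between neighbours. That order crosses the runs of deposit between 10 h and 2 d. The 4 d, 6 d and Norm arrays were all at the floor. Ccl2 was thus at least 1.82-fold higher at 10 h than in Norm, a log2 change of at least 0.86 ± 0.21 (SE) with a limma adjusted p = 0.470. From 10 h to 4 d the log2 difference was at least as large as -0.86 ± 0.17 (adjusted p = 0.183), and late minus early, with all 4 late arrays at the floor, was at least as large as -0.58 ± 0.12 (adjusted p = 0.194; -1.57 with the floor at the 20th percentile). The first lies within 1 run of deposit and the second is balanced over the runs, and without the array labelled 4 d 1a both had the same values, with adjusted p = 0.112 and 0.138. None of these passed. The size depends on the floor, and with a floor at the 20th percentile the 10 h change was 2.57 (adjusted p = 0.555).

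Ccl7 (94761_at), a second ligand of Ccr2 encoded near Ccl2, read 241 and 314 at 10 h. All 7 other A arrays were at the floor, with 142 and 92.9 at 2 d, 93.6 and 15.4 at 4 d, 11.8 and 110 at 6 d and 23.8 on the array labelled Norm 1b. The 10 h pair again lay above every other array, but 1 of its arrays stood only just over the floor. Ccl7 was tested only through this pair, and the share of all probe sets with this order was not counted. The log2 change at 10 h was at least 0.22 ± 0.20 (adjusted p = 0.944), and 1.96 with the floor at the 20th percentile (adjusted p = 0.560).

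The neutrophil attractants gave a signal only for Cxcl1. Its probe set 95348_at read 396 and 401 at 10 h, 45.6 and 140 at 2 d, 187 and 66.9 at 4 d, 241 and 81.4 at 6 d, and 133 on the array labelled Norm 1b. The 10 h arrays lay above the 7 others, and of these only 6 d 1a was above the floor. Cxcl1 was at least 1.69-fold higher at 10 h than in Norm, a log2 change of at least 0.76 ± 0.18 (limma adjusted p = 0.444). From 10 h to 4 d it differed by at least -0.76 ± 0.14 (adjusted p = 0.176). Late minus early was -0.37 ± 0.10 (adjusted p = 0.286), or -0.65 with the floor at the 20th percentile. Both 2 d arrays and 3 of the 4 late arrays were at the floor, so this difference is not a bound. With no filter on dim probe sets, the same changes passed, with adjusted p = 0.000128 at 10 h, 0.000238 for 4 d minus 10 h and 0.000626 for late minus early. Their sizes were unchanged. That setting adds probe sets raised to the floor on every array, whose spread is 0 by construction and enters the fitted trend. These adjusted p-values are therefore no support for a change. With the floor at the 20th percentile the 10 h change was 1.58 (adjusted p = 0.914). The further probe set 95349_g_at, with a suffix for probes common to several transcripts, read 280 and 183 at 10 h and 59.7 to 157 on the other arrays.

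Cxcl2, whose upstream stretch carries as many kappaB matches as that of Cxcl1, was at the floor on every A array. Its probe set 101160_at read 57.8 and 43.5 at 10 h and 15.9 to 139 elsewhere. For a probe set below the floor only that bound is known.

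Il1b, a cytokine made mainly by activated myeloid cells, was above the floor at 10 h and below it at 2 d and 6 d. Its probe set 103486_at read 331 and 419 at 10 h and 343 on the array labelled Norm 1b. It read 195 and 210 at 2 d, 192 and 278 at 4 d, and 37.8 and 139 at 6 d. Both 10 h arrays lay above all 2 d and 6 d arrays, an order that does not use the doubted pair. The 2 d and 6 d arrays stand in another run of deposit than those of 10 h. Their beta-actin 3' over 5' signal on A was 1.2 to 4.62, against 0.0862 and 0.517 at 10 h. The part of either was not tested. Where Norm and 4 d stand rests on that pair, since the array labelled Norm 1b (343) lay between the 10 h arrays and the array labelled 4 d 1a (192) was at the floor. The log2 difference from Norm was 0.12 ± 0.22 at 10 h (limma adjusted p = 1; -0.051 without 10 h 1b and 0.29 without 10 h 1a), at least as low as -0.54 ± 0.22 at 2 d (adjusted p = 0.239) and at 6 d (adjusted p = 0.509), and -0.42 ± 0.22 at 4 d (adjusted p = 0.874). 4 d minus 10 h was -0.54 ± 0.18 (adjusted p = 0.492; 0.382 without the array labelled 4 d 1a). With the floor at the 20th percentile the 6 d value was -1.79 (adjusted p = 0.442).

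The remaining acute members gave no signal above the floor. Il6, which drives the acute-phase response, read 125 and 110 at 10 h (102218_at) and 8.6 to 94.3 on the other 7 arrays, all below the floor. Ccl3 (102424_at) read 42.7 to 232 over the 9 arrays with 60.1 and 195 at 10 h, and Ccl4 (94146_at) read 39.2 to 102 with 54.9 and 50.8 at 10 h.

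**Figure D2:**
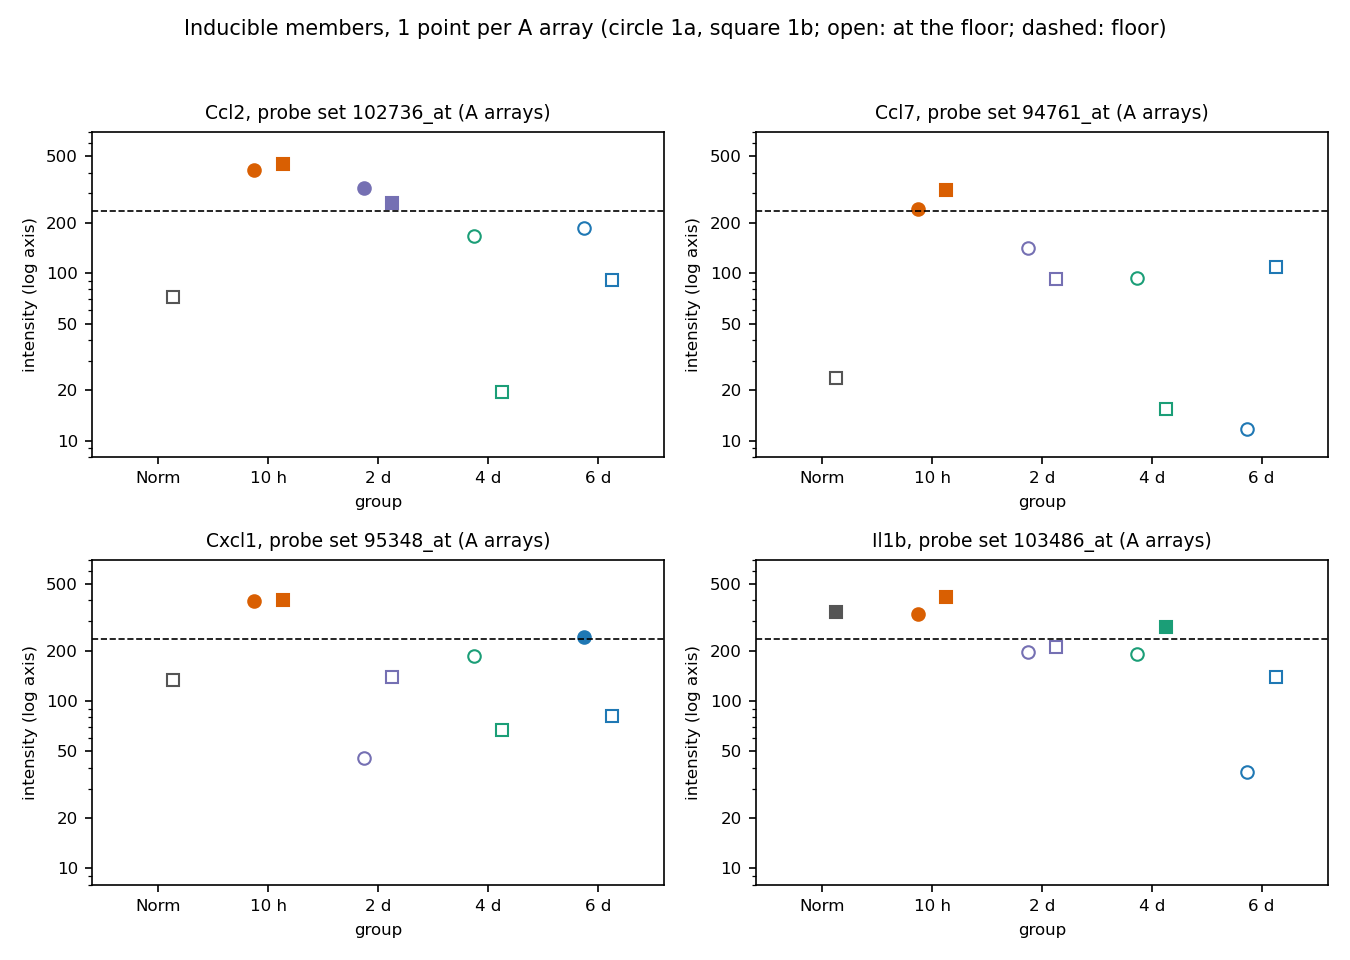
Intensity (log axis) of Ccl2, Ccl7, Cxcl1 and Il1b on each A array by group; circles are sample 1a, squares 1b, open symbols lie at the floor and the dashed line is the floor of 236. The 2 arrays of 10 h are the highest for Ccl2 (413 and 447), Ccl7 (241 and 314) and Cxcl1 (396 and 401), and the 2 d and 6 d arrays of Il1b lie under the floor.

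Markers of the cells that respond to these chemokines were read on the same arrays. The summed intensity of 11 neutrophil markers on A was 6510 to 6864 at 10 h, 6993 to 7416 at 2 d, 7131 to 7810 at 4 d, 5914 to 6136 at 6 d and 6439 on the Norm array, and Ngp and Mmp8 were at the floor on every array. The sum of 13 monocyte and macrophage markers was 31477 to 35233 at 10 h, the lowest group, 37170 to 37776 at 2 d, 38009 to 39078 at 4 d, 39181 to 46124 at 6 d and 39499 on the Norm array. Marco and Itgam were at the floor throughout. Each list had 1 further marker on C. The neutrophil marker Cd177 read 985 to 1220 in Norm, 790 to 940 at 10 h, 606 to 875 at 2 d, 434 to 495 at 4 d and 295 to 472 at 6 d. The macrophage marker Siglecf read 251 to 254 in Norm, 165 to 329 at 10 h, 366 to 463 at 2 d, 411 to 783 at 4 d and 654 to 666 at 6 d. None of the 10 tested neutrophil markers or the 11 tested monocyte and macrophage markers passed the adjusted threshold at 10 h in limma. At an unadjusted p under 0.05 none of the neutrophil markers was called, and 1 of the monocyte and macrophage markers was higher (2.7% of all genes were), the Fc receptor gene Fcgr1 (0.63 ± 0.27, adjusted p = 0.815). Lyz2, the brightest of the tested markers on A, read 11478 and 15915 at 10 h and 16544 to 19879 on the other arrays. Cd14 read 3097 and 2954 at 10 h and 2384 to 2725 elsewhere. At 6 d, 2 neutrophil markers were lower and 0 higher at an unadjusted p under 0.05. Of the monocyte and macrophage markers, 3 were then higher and 0 lower. Of all genes, 4.53% were lower and 4.58% higher at 6 d. No marker of either list passed the adjusted threshold in any comparison. The part of these cells in the chemokine values was not tested. In whole lung, fewer cells of a type and less RNA per cell cannot be told apart.

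Cxcl12 lay above the floor on every array, and its A probe sets differed from its B probe set. The representative probe set 100112_at read 3447 and 3320 at 10 h, 6113 and 5988 at 2 d and 7187 and 6557 at 6 d. The 4 d arrays split, with 5825 on 1a and 1928 on 1b, and the array labelled Norm 1b read 1646. Thus 10 h, 2 d and 6 d stood in this order with no overlap, the single Norm array was the lowest of all 9, and the 4 d pair lay on either side of the 10 h arrays. Both arrays that went against their labels bear on this pattern. The array labelled 4 d 1a read close to the 2 d arrays, and the array labelled Norm 1b read close to 4 d 1b. The size of each difference of 100112_at from Norm, and its direction at 10 h and at 4 d, therefore depend on the labels of this pair. The groups with the brightest 100112_at, 2 d and 6 d, are also those of 1 run of deposit and of a raised beta-actin 3' over 5' signal on A (3.77 and 4.62 at 2 d, 1.66 and 1.2 at 6 d, 0.0862 to 0.644 on the other A arrays), whose part was not tested.

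Against Norm, the log2 change of 100112_at was 1.04 ± 0.50 at 10 h (limma adjusted p = 0.866), 1.88 ± 0.50 at 2 d (adjusted p = 0.095), 1.03 ± 0.50 at 4 d (adjusted p = 0.859) and 2.06 ± 0.50 at 6 d (adjusted p = 0.284). The 2 d change corresponds to 3.68-fold and the 6 d change to 4.17-fold, and neither passed. The mean of the hypoxia groups was 1.5 ± 0.44 above Norm (adjusted p = 0.459). The split pair at 4 d widens the shared estimate of the spread. Without either 4 d sample in turn the 2 d change passed, with adjusted p = 0.0188 without 1a and 0.0187 without 1b, and the mean of hypoxia passed without 4 d 1b (1.70, adjusted p = 0.0429). Fitted to the 2 groups alone, 10 h, 2 d and 6 d passed with adjusted p = 0.0474, 3.30e-05 and 6.97e-05, in fits where the single Norm array adds nothing to the spread. Each of these values needs the array labelled Norm 1b. In comparisons that do not use it, 6 d minus 2 d was 0.18 ± 0.41 (adjusted p = 0.944), and late minus early was 0.08 ± 0.29 (adjusted p = 0.946; -0.31 without the array labelled 4 d 1a and 0.48 without 4 d 1b).

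The 3 A probe sets of Cxcl12 correlated at r = 0.720 to 0.902 with each other over the 9 A arrays. 162234_f_at, whose suffix marks probes shared within a family of sequences, read 589 on the Norm array, 988 and 917 at 10 h, 1924 and 1244 at 2 d, 1254 and 834 at 4 d, and 1611 and 1171 at 6 d. Its log2 change was 1.39 ± 0.35 at 2 d (limma adjusted p = 0.082), 1.22 ± 0.35 at 6 d (adjusted p = 0.348) and 1.03 ± 0.30 for the mean of hypoxia (adjusted p = 0.475). 160511_at read 557 on the Norm array and 490 to 988 in the hypoxia groups, with changes of 0.60 at 2 d and 0.56 at 6 d. The lowest of its arrays was 4 d 1b, and the highest was the array labelled 4 d 1a.

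On the B array, where Norm had both arrays, the Cxcl12 probe set 105704_at read 739 and 681 in Norm and 785 and 771 at 10 h. It read 1175 and 846 at 2 d, 768 and 738 at 4 d, and 771 and 782 at 6 d. The 2 d arrays were the highest, and the Norm pair did not overlap with 10 h, 2 d or 6 d. The log2 change was 0.49 ± 0.22 at 2 d (limma adjusted p = 0.272) and 0.09 to 0.13 at the other times. The larger differences of the A probe sets at 6 d were not seen by this probe set, which was read on arrays other than the doubted pair. Levels of different probe sets are not set against each other.

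**Figure D3:**
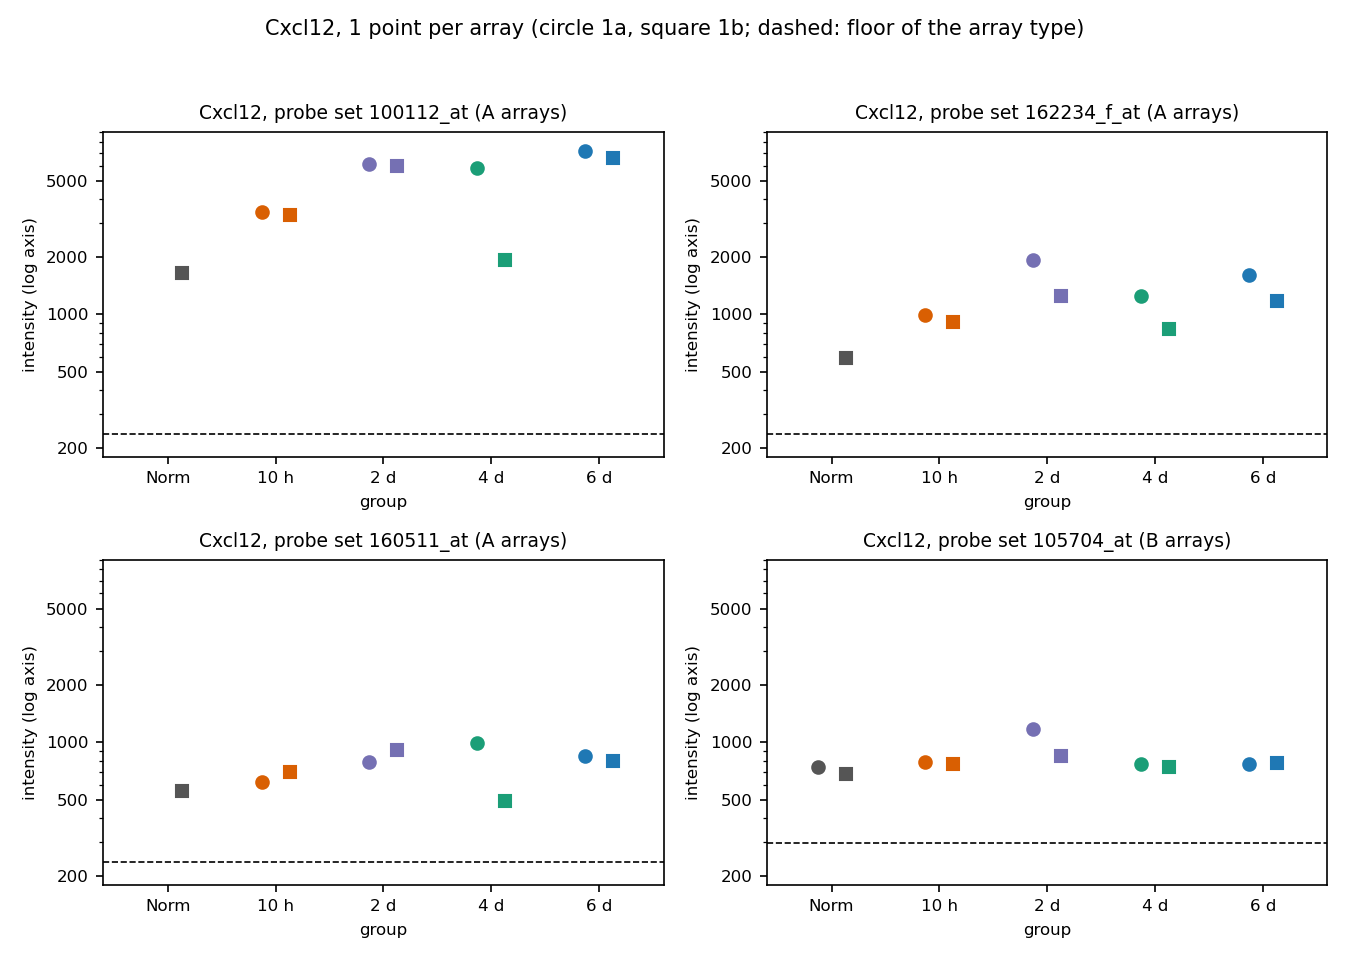
Intensity (log axis) of the 4 Cxcl12 probe sets on each array by group; circles are sample 1a, squares 1b and the dashed line is the floor of the array type. 100112_at lies between 5988 and 7187 at 2 d and 6 d, at 3447 and 3320 at 10 h and at 1646 on the single Norm array, and the 4 d arrays split at 5825 and 1928; the B probe set 105704_at stays between 681 and 1175.

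The tested genes whose log2 levels were most like Cxcl12 100112_at over the 9 A arrays were Zcrb1 (r = 0.962), Ackr3 (r = 0.961) and Mark3 (r = 0.944), a description over arrays that share the samples and the runs of deposit. Ackr3, the scavenger receptor of Cxcl12, read 624 on the array labelled Norm 1b, 824 and 1069 at 10 h, 1977 and 1611 at 2 d, 1554 and 612 at 4 d, and 1583 and 1707 at 6 d. Its 4 d arrays split in the same direction as those of Cxcl12. Its log2 change was 0.59 ± 0.47 at 10 h (limma adjusted p = 0.931), 1.52 ± 0.47 at 2 d (adjusted p = 0.130) and 1.40 ± 0.47 at 6 d (adjusted p = 0.408), and none passed. Cxcr4, the signalling receptor of Cxcl12, read 778 on the array labelled Norm 1b and 781 on 4 d 1b, and 226 to 444 on the other 7 A arrays. Its change was -1.41 ± 0.51 at 10 h (adjusted p = 0.709), -1.62 ± 0.51 at 2 d (adjusted p = 0.134) and -1.03 ± 0.51 at 6 d (adjusted p = 0.612). The summed intensity of 10 fibroblast and mural markers on A was 41166 to 51218 at 10 h, 51968 to 58241 at 2 d, 36026 to 55104 at 4 d, 40912 to 45575 at 6 d and 42742 on the Norm array. The sum of 9 endothelial markers was 59553 to 61869 at 2 d and 38891 to 53111 on all other A arrays. Their part in the Cxcl12 values was not tested.

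Cxcl15, the epithelial chemokine, lay far above the floor on every C array, where Norm had both arrays. Its representative probe set 165875_at read 42607 and 28744 in Norm, 27306 and 34072 at 10 h, 32693 and 31312 at 2 d, 38528 and 47774 at 4 d, and 48656 and 47804 at 6 d. All 4 late arrays lay above all 4 early ones, while the Norm pair spanned from the early range into the late one. The share of all probe sets with such a separation was not counted. Late minus early was 0.54 ± 0.19 (limma adjusted p = 0.347), 4 d minus 10 h was 0.49 ± 0.26 (adjusted p = 0.694) and 6 d minus 2 d was 0.59 ± 0.26 (adjusted p = 0.385), the last pair each within 1 run of deposit. None passed. The 6 d change against Norm was 0.46 ± 0.26 (adjusted p = 0.666), or 0.26 after quantile normalization (adjusted p = 0.849), and it rests on the Norm pair, being 0.75 without Norm 1a and 0.18 without Norm 1b. The doubted A arrays do not enter these values.

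The second probe set of Cxcl15, 166136_i_at, read 15176 and 4954 in Norm, 4172 and 9306 at 10 h, 5058 and 7014 at 2 d, 9196 and 11803 at 4 d, and 10386 and 10408 at 6 d. It correlated with the first at r = 0.858 over 10 arrays. Late minus early was 0.77 ± 0.35 (adjusted p = 0.468), with 10 h 1b inside the late range. The tested genes most like 165875_at over the 10 C arrays were Ptprg (r = 0.958), Lamp3 (r = 0.876), which is known from type 2 alveolar cells, and Rerg (r = 0.857). The 2 epithelial markers measured on C summed to 3636 to 3811 in Norm, 3814 to 4472 at 10 h, 4928 to 5496 at 2 d, 4049 to 4119 at 4 d and 4820 to 5015 at 6 d. Of the 2, Epcam read 3956 and 4097 at 2 d and 2647 to 3453 elsewhere, and the surfactant gene Sftpa1 read 1367 and 1712 at 6 d and 747 to 1399 elsewhere. Their part in the Cxcl15 values was not tested.

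**Figure D4:**
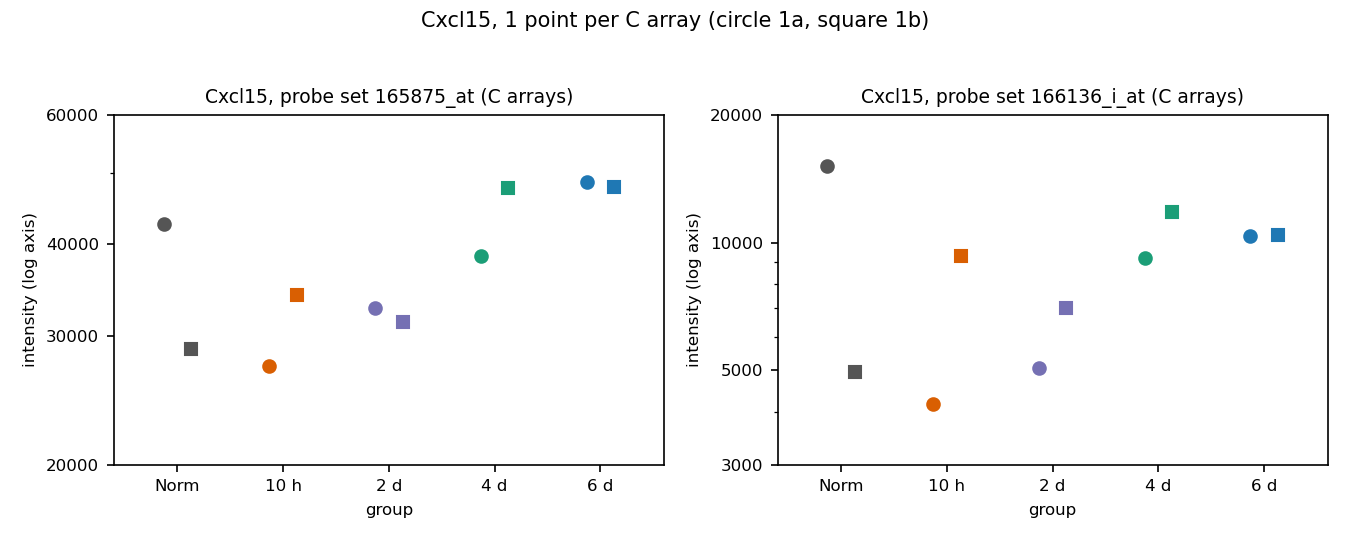
Intensity (log axis) of both Cxcl15 probe sets on each C array by group; circles are sample 1a and squares 1b. For 165875_at the 4 d and 6 d arrays lie between 38528 and 48656, above the 10 h and 2 d arrays at 27306 to 34072, and the 2 Norm arrays are far apart at 42607 and 28744.

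**Figure D5:**
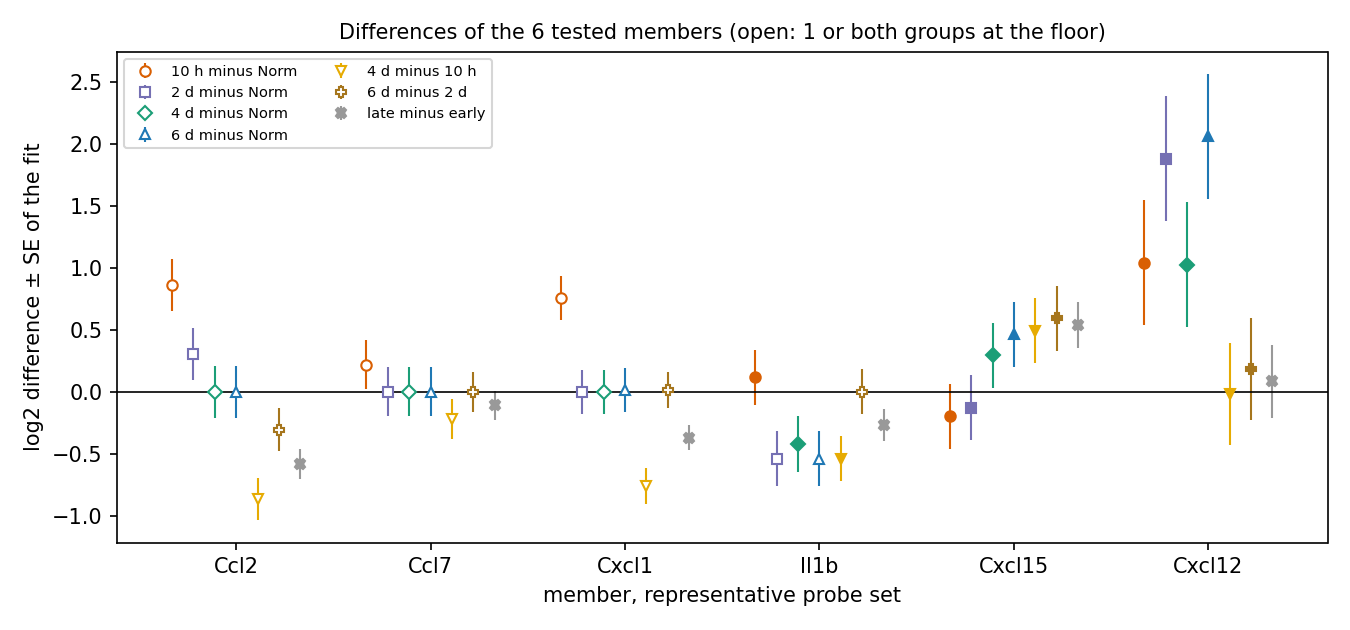
Log2 differences, with error bars of 1 SE from limma, for the representative probe sets of the 6 tested members in 7 comparisons; open symbols have 1 or both groups at the floor, so that the size is a lower bound. Ccl2 and Cxcl1 stand at 0.86 and 0.76 for 10 h minus Norm and at -0.86 and -0.76 for 4 d minus 10 h, Cxcl15 at 0.54 for late minus early, and Cxcl12 at 1.88 and 2.06 for 2 d and 6 d minus Norm; none passed the adjusted threshold.

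Ccl2, Ccl7, Cxcl1 and Il1b correlated with each other at r = 0.655 to 0.914 over the 9 A arrays, the highest value being Ccl2 with Cxcl1. With Cxcl12 100112_at the same 4 probe sets had r = -0.692 to -0.074. These are descriptions over arrays that share samples and floors. Levels below the floor were raised to it before the correlation. Ccl7 was above the floor on 2 arrays, both of 10 h, and Cxcl1 on 3, the 10 h arrays among them. The other Cxcl1 array read 241, against a floor of 236. The r values of Ccl7 and Cxcl1 therefore largely restate that the 10 h arrays were above the floor. Both genes met the filter through those arrays, so r is no separate support for a shared change.

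Among the receptors of the members, 8 of 15 genes were tested. At 2 d 1 passed, beside 480 of all 25801 probe sets (1.86%). At an unadjusted p under 0.05, 1 was higher and 3 were lower at 2 d, against 8.31% and 10.1% of all genes. The receptor that passed was Ackr2, a scavenger of inflammatory CC chemokines, measured on C. It read 5578 and 7637 in Norm, 7033 and 7092 at 10 h, 3161 and 3272 at 2 d, 4240 and 3470 at 4 d, and 5956 and 4507 at 6 d. It fell by 1.02 ± 0.20 at 2 d (limma adjusted p = 0.0438), and the 2 d arrays lay below all others. That call was lost in 15 of 19 other settings. Ccr2, the receptor of Ccl2 and Ccl7, read 512 and 438 at 2 d and 670 to 1274 on the other A arrays (-1.07 ± 0.29 at 2 d, adjusted p = 0.0997). No receptor passed in the other comparisons.

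Of 27 other chemokines 15 were tested, and Ppbp alone passed, at 2 d, where 1.86% of all probe sets did. Ppbp, a chemokine precursor stored in platelets, read 2118 and 2223 in Norm, 3078 and 3818 at 10 h, 3696 and 3858 at 2 d, 3488 and 3008 at 4 d, and 2468 and 2514 at 6 d on B. It rose by 0.80 ± 0.15 at 2 d (limma adjusted p = 0.0361), was 0.66 ± 0.15 above Norm at 10 h (adjusted p = 0.40), and its Norm arrays lay below all others. The 2 d call was lost in 12 of 19 other settings. At 10 h, 11 of the 15 were higher and 3 lower, with a median of 0.22 against 0 over all genes, of which 47.2% were higher. At an unadjusted p under 0.05, 5 were higher and 0 lower, against 2.7% and 2.86% of all genes. Among them was Ccl17, a ligand of Ccr4, at 555 and 894 at 10 h and 51.9 on the array labelled Norm 1b (1.58 ± 0.47, adjusted p = 0.597), and Ccl12, another ligand of Ccr2, at 322 and 323 at 10 h with all 7 other A arrays at the floor (0.45 ± 0.17, adjusted p = 0.731). Ccl12 thus had the same pattern of arrays above the floor as Ccl7, and it met the filter only through its 10 h arrays. The 10 h counts of this list therefore hold a gene that was tested because it was high at 10 h.

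Regulators and targets of the IL-1 and IL-6 response gave 26 tested genes of 34. Cebpd, a transcription factor induced by both cytokines, read 10477 and 11603 at 10 h, 8193 and 7982 at 2 d, 4510 and 3705 at 4 d, 4903 and 5312 at 6 d and 4010 on the array labelled Norm 1b. It rose by 1.01 ± 0.20 at 2 d (limma adjusted p = 0.0458), a call lost in 13 of 18 other settings. Cebpd was the only gene of this list to pass at 2 d, where 1.86% of all probe sets did. Its larger change of 1.46 ± 0.20 at 10 h did not pass (adjusted p = 0.259). Its 10 h arrays lay above all others. From 10 h to 4 d, 21 of the 26 genes were lower and 4 higher, with a median of -0.28 against 0 over all genes; 0 passed in limma, and 7 were lower and 0 higher at an unadjusted p under 0.05, against 5.02% and 4.14% of all genes. Without the array labelled 4 d 1a the counts were 20 lower and 5 higher, with a median of -0.39. In that setting Cebpd changed by -1.57 and Socs3, the feedback inhibitor of IL-6 signalling, by -2.48. Without 4 d 1b the counts were 17 lower and 8 higher, with a median of -0.28. Each of these values rests on the single 4 d array that then remains. Socs3 read 1228 and 1412 at 10 h, 801 and 131 at 4 d, 567 to 631 at 2 d, 314 to 350 at 6 d and 401 on the Norm array. Its 10 h arrays were its highest. How many of all probe sets have their 10 h arrays highest was not counted.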

How the data were processed

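RNA of whole lung was measured on 30 arrays, of which 29 were used. The authors deposited intensities, 1 per probe set and array, on a linear scale; the software is not given in the sources used here. Trimmed means (2% left out at each end) were nearly equal, so no further scaling was applied. Intensities were set to at least the 40th percentile of their array type and log2 was taken. A probe set entered the tests if 2 or more arrays exceeded the floor, and controls did not enter. With limma 3.58.1 (R 4.3.3; lmFit, eBayes with a trend) 5 group means were fitted per array type, and p-values were adjusted by Benjamini-Hochberg over 25801 probe sets, with a threshold of 0.05, two-sided. The single Norm array on A is assumed to vary like the other groups. The procedure was tested on simulated data. Symbols came from the platform annotation, which can be old; a gene in a list is represented by 1 probe set, plain suffixes first, then the highest relative level. Changes are printed for member probe sets with an unadjusted p under 0.05 and for each member's largest change, and for up to 4 genes of smallest p per list plus those that passed; further changes of Il1b, Cxcl12 and Cxcl15 were added after their values were seen. The number of arrays limits the precision.

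The members and the gene lists were chosen with earlier results of these data known. The letters 1a and 1b do not pair the samples: the differences between them correlated at -0.158 to 0.134 between groups. Alternatives changed the floor, the filter, the scaling, the variance trend, the adjustment, the groups in the fit, a block for the letters, and left out each sample or the 2 d arrays.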

Additional observations from a re-analysis of the deposited data

How the results depend on the processing

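The 33 member changes printed were recomputed under up to 20 alternatives, 606 values in all. Of these, 593 kept their direction and side of the threshold, 10 passed where the value above did not, and 3 reversed, none of them past the threshold on either side: Cxcl12 100112_at late minus early was -0.0086 under median scaling and ranged from -0.31 to 0.48 leaving out 1 sample in turn (below 0 without 4 d 1a), and Il1b at 10 h ranged from -0.051 to 0.29 (below 0 without 10 h 1b). Without a filter on dim probe sets, those raised to the floor on every array enter the fit with a spread of 0. In that setting the number of member probe sets that passed, 0 in each comparison above, became 1 for 10 h minus Norm, the mean of hypoxia, late minus early and 4 d minus 10 h, each time Cxcl1 (adjusted p = 0.0224 for the mean of hypoxia). Fitted to the 2 groups alone it became 1 at 10 h, 2 at 2 d and 1 at 6 d, all Cxcl12 (162234_f_at at 2 d, adjusted p = 0.0317). Leaving out 1 sample in turn, it ranged from 0 to 1 at 2 d and for the mean of hypoxia, and was 0 otherwise. Without the 2 d arrays, an alternative chosen after seeing the data, no member passed. With the letters as a replicate block no member passed; in that fit 217 of all probe sets passed at 2 d in place of 480, and 2 in place of 16 for 6 d minus 2 d.

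The number of all probe sets that passed moved by over 1.5 times in some settings of every comparison. It ranged from 0 to 73 at 10 h, 23 to 733 at 2 d, 0 to 61 at 4 d, 0 to 64 at 6 d, 0 to 94 for the mean of hypoxia, 0 to 87 for late minus early, 0 to 116 for 4 d minus 10 h and 0 to 100 for 6 d minus 2 d. The cause was not tested. Signal over background limits Cxcl2, Il6, Ccl3 and Ccl4, which lay at the floor on every array.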
